A study of Schizosaccharomyces pombe with 2 samples.

Results

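The 131 genes described here encode the proteins of the cytoplasmic ribosome of fission yeast (Schizosaccharomyces pombe). They are the protein-coding genes of chromosomes I to III whose symbol is rpl (large subunit) or rps (small subunit) followed by a digit, out of 5113 protein-coding genes. Genes for the mitochondrial ribosome were left out. Each gene was placed in the 10 kb bin of a Hi-C contact map that holds its midpoint. The genes fell into 119 bins, all of which had values. Hi-C ligates DNA ends that lay close together in fixed chromatin, so the contact value of 2 bins reports how often they met.

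The map came from the strain sap1-1, which carries a mutant allele of the gene for the essential DNA-binding protein Sap1. Cultures grew logarithmically in rich medium (YEA) at 26 °C and then for 6 h at 33 °C, were fixed in 3% formaldehyde for 20 min, and were cut with HindIII. The design lists 2 biological replicates and 1 group, with no control strain and no other temperature. The values form 1 map, whose header carries a tag R1, and no source says whether both replicates are in it. It was treated as 1 sample, so there was no replicate error, no test was made, and nothing below is a difference between strains. The deposited values hold 37526864 recovered reads, with 7686 to 98119 reads per bin and a median of 11 reads per pair of bins on different chromosomes. Intervals on single values are 95% Poisson intervals on the reads and cover counting error only. The error of the expectation that each value was divided by is not in them. Intervals on medians are binomial and treat bins as independent, which neighbouring bins are not.

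A ribosome holds 1 copy of nearly every ribosomal protein, so the genes must be expressed at matched levels, and in growing yeast they are among the most highly transcribed genes. In fission yeast most of these proteins are encoded by duplicated genes (paralogues) scattered over the genome. Their promoters commonly carry the HomolD box in place of a TATA box, at times with a second element, HomolE. The HomolD box is bound by Rrn7, a protein related to TFIIB that is also known from RNA polymerase I transcription.

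Most of the genes share a promoter element. The HomolD box, taken as CAGTCACA on either strand from 250 bases before to 50 bases after the annotated gene start, was found in 84 of the 131 promoters. That is 64.1% (interval 55.3 to 72.3, exact binomial), against 2.68% of all protein-coding genes. With the last letter left free it was found in 121 promoters, or 92.4%, against 4.71% of all. The first 8 letters of HomolE, ACCCTACC, were found in 40 promoters (30.5%, against 1.62% of all). Both elements were held by 23 promoters (17.6%, against 0.567% of all). In the 4 promoters with 2 or more boxes the one farthest upstream was taken. The HomolD box began at a median of 51 bases before the gene start (quartiles 57 and 47), and none of these 84 boxes lay after it. It read forwards in 57 promoters and backwards in 27. Large-subunit genes had it in 50 of 76 promoters and small-subunit genes in 34 of 55. A match describes the letters only and is not evidence of binding.

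The sequences below show the box in the promoters of 4 genes whose bins were among those that met the chromosome ends least, and in 2 of those that met them most. They are 52 bases each, from the RefSeq assembly ASM294v3, 5′ to 3′ on the strand of the gene, with the HomolD box in capitals. The genes rpl44, rps7 and rps1102 are on chromosome I, rpl4301 and rpl401 on II and rpl2802 on III. In rpl401 and rpl2802 the box reads backwards.
rpl44: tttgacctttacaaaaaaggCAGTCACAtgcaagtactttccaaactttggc
rpl4301: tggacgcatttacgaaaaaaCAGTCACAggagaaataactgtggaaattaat
rps7: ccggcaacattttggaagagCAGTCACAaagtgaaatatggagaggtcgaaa
rps1102: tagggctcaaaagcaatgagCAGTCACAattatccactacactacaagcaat
rpl401: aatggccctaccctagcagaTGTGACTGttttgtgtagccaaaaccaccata
rpl2802: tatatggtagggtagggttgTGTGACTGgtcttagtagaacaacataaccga
The windows lie at chrI:911705-911756 (minus strand) for rpl44, chrII:260005-260056 (minus) for rpl4301, chrI:2242548-2242599 (minus) for rps7, chrI:4674511-4674562 (plus) for rps1102, chrII:2143049-2143100 (plus) for rpl401 and chrIII:656531-656582 (plus) for rpl2802. All of them lie upstream of the annotated gene start. The box begins 46 bases before the start of rpl44 and of rpl4301, 49 before rps7, 57 before rps1102, 51 before rpl401 and 74 before rpl2802.

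Some of these genes stand back to back and share the stretch between them, which is shown for 2 pairs because 1 box can then lie in front of both genes. The genes rpl701 (annotated as an L7-like protein) and rps1402 (uS11) on II are transcribed away from each other across 67 bases, chrII:1792296-1792362, which hold 1 box, printed on the plus strand with the box in capitals. The genes rps1602 (uS9) and rpl13 (eL13) on I are divided by 102 bases, chrI:1711083-1711184, which hold no exact box and are printed with no capitals. They do hold cagtcacg, which differs from the box in its last letter only.
rpl701 and rps1402: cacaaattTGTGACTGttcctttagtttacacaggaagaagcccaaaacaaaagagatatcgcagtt
rps1602 and rpl13: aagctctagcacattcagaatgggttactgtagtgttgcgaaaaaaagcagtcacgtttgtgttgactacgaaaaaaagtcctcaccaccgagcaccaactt
Further such pairs are rpl35 and rpl902 on III, 203 bases apart, and rps2 and rps20 on III, 490 bases apart, each with 1 box between the genes.

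The genes were spread over all 6 arms and were seldom neighbours. They numbered 58 on I, 48 on II and 25 on III, which is 2.49%, 2.57% and 2.73% of the protein-coding genes there. The left arm of III had the highest share (3.67%, 15 genes) and its right arm the lowest (1.98%, 10 genes). Between neighbouring genes of the set the median gap was 57925.5 bp, and 22 of 128 gaps were under 10 kb. The 131 genes make 74 families, of which 20 have 1 gene, 51 have 2 and 3 have 3. In 38 of the 54 families with several genes the copies lie on different chromosomes. In 11 bins more than 1 of the genes was present, and rpl701, rps1402 and rps1601 shared a bin.

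**Figure D1:**
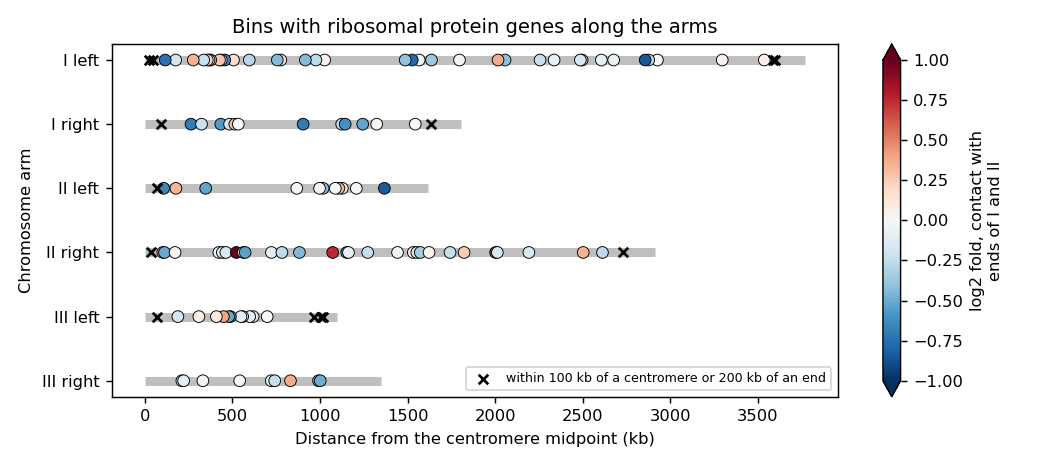
Position of the bins with ribosomal protein genes on each chromosome arm, by distance from the centromere midpoint in kb. Circles are the 106 arm bins, coloured by the log2 fold of end contact (with the ends of chromosomes I and II) over the running median (blue lower, red higher), and crosses are bins close to a centromere or an end. Blue bins occur on every arm, and the darkest red bin, on the right arm of II, holds rpl401.

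Contact of these bins with the clustered centromeres followed their distance along the arm. Levels in this paragraph are mean contact with windows on other chromosomes, as a multiple of the mean over all inter-chromosomal pairs of arm bins. Arm bins are those at least 100 kb from a centromere midpoint and 200 kb from an end. The 6 bins within 100 kb of a centromere had a median level of 14.6 with the other centromeres (6.82 to 23.8). The 32 bins at 100 to 500 kb had a median of 1.46, the 48 at 500 to 1500 kb 0.596 and the 33 beyond 1500 kb 0.394. All bins of the map had medians of 13.7, 1.52, 0.566 and 0.393 in the same classes, so the ribosomal protein genes lay close to the general course.

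Among the single genes near centromeres, rpl1002 (large-subunit protein L10) was closest, at 26.3 kb, and met the other centromeres at 23.8 times the mean (interval 22.8 to 24.8, 2162 reads). Next came rps402 (eS4) with 19.8 (2558 reads) at 32.5 kb, and rps1802 (uS13) with 15.7 (1331 reads) at 68.5 kb. The gene rpl42 (eL42) had 13.6 (1698 reads), rpl26 (uL24) 10.8 (1121 reads) and rps1502 (uS19) 6.82 (895 reads). The order of these 6 levels was that of the distances except that rps1802 stood above rpl42 (46.3 kb) and rpl26 (67.5 kb). All 6 bins met the ends of I and II at 0.781 to 1.19 times the mean.

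Of the 7 genes within 200 kb of an end, those on I and II met the ends of I and II on other chromosomes above the inter-chromosomal mean. Those on III met them below it. The levels with the ends of I and II were 4.10 for rpl4101 (361 reads), 3.91 for rpl3201 (423 reads), 3.20 for rps101 (355 reads) and 2.36 for rps601 (256 reads). The 3 genes near the left end of III, which borders the ribosomal DNA, had 0.738 for rpl35 (159 reads), 0.689 for rpl902 (96 reads) and 0.667 for rpl2402 (109 reads). The median over these 7 bins was 2.36. All 102 bins of the map within 200 kb of an end had a median of 6.31 (0.590 to 49.3). Those bins were not split by chromosome, so the contrast of I and II with III is not shown to be particular to these genes.

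**Figure D2:**
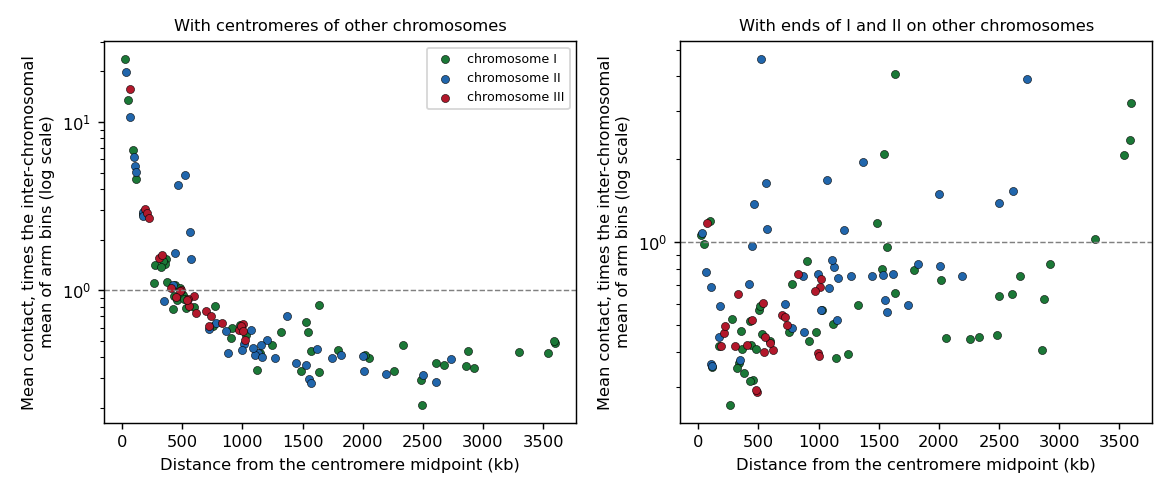
Mean contact of each bin with ribosomal protein genes with the centromeres (left) and the ends of I and II (right) on other chromosomes, on log axes as a multiple of the inter-chromosomal mean of arm bins (dashed line at 1), by distance from its own centromere in kb. Contact with centromeres falls from 23.8 to under 1 along the arms, while contact with ends shows rpl401 at 4.64 and the genes near the ends of I and II above the others.

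With distance removed, the bins with ribosomal protein genes met the ends of chromosomes I and II slightly less than their surroundings did. This fold is called end contact below. Each bin's contact was divided by the running median of the bins within 100 kb on the same arm, the bin itself left out, and windows were the outermost 5 bins of each end. The median log2 fold of the 106 arm bins with these genes was -0.12 (0.920-fold, interval -0.19 to -0.03, SD 0.36 over bins), beside -0.01 for all 1068 arm bins. They lay under the running median in 69 of 106 bins, or 65.1%, against 51.7% of all arm bins. Of the 106, 3 reached 1.5-fold (5.99% of all arm bins did) and 10 fell to 1/1.5 or below (4.31% of all). The shift is small beside the spread of the bins, and the 2 distributions overlapped over nearly their whole range. With end windows of 20 kb the difference was not seen, the medians being -0.03 for the set and -0.03 for all arm bins. In reads without the authors' correction the median was -0.11 (interval -0.18 to 0.01), and the share under the running median was 57.5% against 51.1% of all arm bins.

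The median was below 0 on each chromosome, but its interval included 0 on II and III. Bins under the running median numbered 32 of 47 on I (median -0.19, interval -0.26 to -0.01), 23 of 39 on II (-0.09, interval -0.23 to 0.04) and 14 of 20 on III (-0.10, interval -0.19 to 0.02). The 10 bins at 1/1.5 or below comprised 7 on I, 3 on II and 0 on III. The shares of all arm bins on each chromosome were not computed, so these counts do not compare the chromosomes. Bins on III were averaged over the ends of both I and II, and bins on I or II over the ends of the other only. The SD over bins of the set was 0.32 on I, 0.44 on II and 0.26 on III. Large-subunit genes had a median of -0.09 (42 of 65 bins under) and small-subunit genes -0.17 (32 of 47). Genes without a paralogue had -0.19 (11 of 15) and duplicated genes -0.12 (61 of 94). Whether these groups differ was not tested.

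The bin of rpl44, which encodes a large-subunit protein of the L28e family, had the lowest fold of the set, 0.556 (interval 0.403 to 0.749, 43 reads), with 14 reads to the left and 29 to the right end of II. The bin of rpl4301 (eL43) had 0.560 (0.469 to 0.663, 134 reads). That of rps7 (eS7) had 0.584 (0.463 to 0.728, 79 reads). These 3 intervals overlap almost wholly, so their order carries no weight. The bins of rps1102 (uS17) and rps002 (annotated as S0B) had 0.611 (76 reads) and 0.616 (26 reads). In the order named, the 5 bins hold 11, 2, 7, 2 and 5 HindIII sites. Of these 5 genes, 4 are on I and 4 have an exact HomolD box, rps002 being the one without. In the whole set 47 of 106 arm bins are on I and 84 of 131 promoters have the box. With 5 genes, the counts cannot be told apart from these shares.

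The bin of rpl401 stood far above the rest. This gene encodes uL4, a protein that lines the tunnel through which the new peptide leaves the ribosome. Its bin, II 2140001, had a fold of 2.94 (2.68 to 3.23, 452 reads), the 6th highest of the 1068 arm bins. It met the right end of I at 3.46 times its running median (350 reads) and the left end at 1.80 (102 reads). The bin 10 kb to its left, in the silent mating-type region, had 6.68, and the fold fell to 1.70 at 20 kb and 1.07 at 30 kb to the right of rpl401. The gene thus lay on the flank of a broader peak rather than at its top.

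The other bins above 1.5-fold differed from each other in their surroundings. The bin of rpl2502 (uL23, at the exit of the peptide tunnel) had 1.69 (1.45 to 1.95, 184 reads) and also lay beside higher bins, with 2.05 at 10 kb and 3.54 at 30 kb to its left. The bin of rps1801 (uS13) had 1.64 (1.29 to 2.05, 76 reads) between neighbours of 1.04 and 0.896. That bin holds no HindIII site and 31636 reads, against a median of 6 sites and 61393.5 reads over the bins of the set. The part of the missing sites in this value was not tested. Below 1.5-fold came rpl802 (uL2, near the catalytic centre) with 1.37, rpl2802 (uL15) with 1.31 and rpl2702 (eL27) with 1.29.

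**Figure D3:**
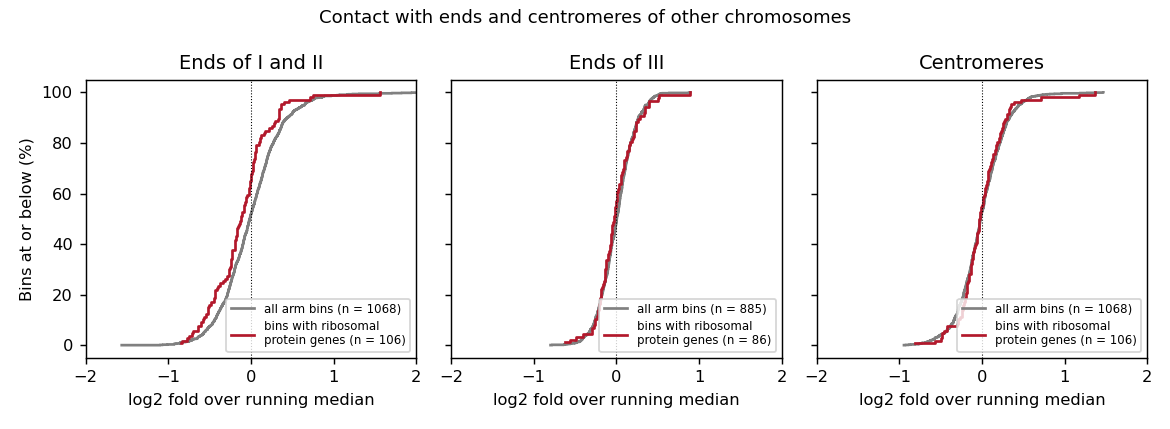
Cumulative share of bins (percent) at or below each log2 fold over the running median for end contact (ends of I and II), the ends of III and the centromeres, with all arm bins in grey and bins with ribosomal protein genes in red. The red curve lies left of the grey one for the ends of I and II (medians -0.12 and -0.01), and the curves nearly coincide for the centromeres (-0.03 and -0.02).

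Contact with the ends of III and with centromeres showed little or no such shift when all bins were kept. For the ends of III the median over the 86 arm bins on I and II was -0.03 (interval -0.08 to 0.02), and 48 of 86 lay under the running median (48.9% of all arm bins). One bin was at 1.5-fold or more (0.339% of all) and 1 at 1/1.5 or below (0.565%). For centromeres the median was -0.03 (interval -0.07 to 0.03), with 58 of 106 under (52.9% of all), 3 at 1.5-fold or more (2.15%) and 1 at 1/1.5 or below (2.43%). Both intervals include 0. With the 5% of bins with the fewest reads left out, the median for the ends of III was 0.05 (interval 0.02 to 0.10). Of the 83 bins of the set then kept, 36.1% lay under, against 48.7% of all arm bins. The shift was then upwards, so its direction for the ends of III depended on the bins kept.

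Single bins departed from this. The bin that rpl701, rps1402 and rps1601 share met the ends of III at 1.86 times its running median (1.44 to 2.36, 67 reads), the highest of 885 arm bins. It holds 1 HindIII site and 31084 reads, and its 39 reads to the left and 28 to the right end of III both exceed the running median (1.82 and 2.02). Next were rps1102 with 1.43 (90 reads) and rps1002 (eS10) with 1.42 (59 reads). The bins of these 2 genes hold 2 HindIII sites each, and 60677 and 26771 reads. Over the bins of the set the median is 6 sites. The part of the few sites in these 3 values was not tested. Among the lowest were rpl1603 (uL13) with 0.680 (50 reads) and rpl3801 (eL38) with 0.715 (86 reads). The bin of rps1102 was thus among the 6 lowest for the ends of I and II and among the 3 highest for those of III.

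For centromeres the bin of rpl401 again led, with 2.58 (2.36 to 2.81, 514 reads), the 2nd highest of 1068 arm bins. The bin of rpl1001 (L10) and rps21 (S21), 60 kb to its left, had 2.27 (2.03 to 2.52, 332 reads). That bin met the centromere of I at 2.92 times its running median (254 reads) and that of III at 1.28 (78 reads). Its fold with the ends of I was 0.889, but the high bins beside rpl401 enter that running median. As a level, its contact with these ends was 1.38 times the inter-chromosomal mean (1.12 to 1.67). All bins of the map at 100 to 500 kb from a centromere had a median level of 0.480 with the ends of I and II. The bin of rps7 had 1.65 (1.33 to 2.01, 94 reads), mainly from the centromere of II (1.90, 67 reads). The lowest values were 0.569 for rpl3703 (eL37, 22 reads), 0.675 for rps002 (152 reads) and 0.709 for rpl1101 (uL5, a binder of the small 5S ribosomal RNA, 79 reads).

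The lower end contact was seen in the bins whose genes have an exact HomolD box and not in the other bins, in the corrected values alone. The 68 bins with such a gene had a median log2 fold of -0.18 (SD 0.36), and 51 of them, 75%, lay under the running median. The other 38 bins had 0.00 (SD 0.36), and 18 of them, 47.4%, lay under it. In reads without the correction the 2 shares were 57.4% and 57.9%, so the split did not hold there. With the last letter of the box left free, 98 bins had a median of -0.13 and the remaining 8 had -0.04. The 29 arm bins where only genes outside the set have the box had -0.10, with 19 under the running median. This split was chosen after the values were seen and was not tested.

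Bins with ribosomal protein genes also held slightly more genes than arm bins in general. Each was picked for holding a gene of the set, which is in its count, and no bins picked by other genes were compared. The difference is therefore not shown to be particular to the set. They held a median of 5 protein-coding genes (4 in all arm bins) and 36.6% GC (36.1%). Among all arm bins those with 5 or more genes had a median log2 fold of end contact of -0.04 (402 bins, 55.7% under the running median). Those with 4 or fewer had 0.01 (666 bins, 49.2% under). Bins of the set had -0.17 with 5 or more genes (74 bins, 51 or 68.9% under the running median). With 4 or fewer they had -0.03 (32 bins, 18 or 56.25% under). This split too was chosen after the values were seen, and the part of gene density in the lower contact was not tested.

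The bins with ribosomal protein genes on different chromosomes did not meet each other more often than other bins did. Each pair of arm bins was divided by the mean of all pairs on the same arms, with both bins at like distances from their centromeres (100 kb classes). The 3553 pairs had a median ratio of 0.976 (interval 0.961 to 0.988), beside 0.977 for all 355211 pairs. Of the 3553, 26 reached 2-fold, which is 0.732%, against 0.722% of all. A pair had a median of 12 reads, so single ratios are imprecise. In reads without the correction the median was 1.02, above 1, beside 0.967 for all pairs.

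The highest pair with at least 10 expected reads joined rps901 (S9) on I and rpl1102 (uL5) on II, at 2.16 (1.39 to 3.22, 24 reads). The gene rpl1102 also met rps1102 at 2.11 (25 reads). The bin of rps1501 (uS19) on III met rps1002 at 2.09 (29 reads) and rps2402 (eS24) at 2.01 (28 reads). The genes rps1101 and rpl1601 met at 1.99 (30 reads). All 5 intervals overlap.

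On the same arm, pairs 20 to 500 kb apart met about as often as their separation gave, or slightly less. The 436 pairs had a median ratio to the mean at the same separation on the same arm of 0.964 (interval 0.947 to 0.981), beside 0.990 for all pairs, and 185 lay above 1, which is 42.4% against 47.6% of all 44455 pairs. Of the 436, 4 reached 1.5-fold, which is 0.917%, against 0.785% of all. In 5 classes of separation the median ran from 0.945 at 310 to 500 kb to 0.981 at 210 to 300 kb, where all pairs had 0.987 and 0.991. In reads without the correction it was 0.989, beside 0.981 for all pairs.

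The most precise of the high pairs was rps3002 (eS30) and rpl35A02 (eL33), 60 kb apart on the right arm of II, with 1275 reads where 840 were expected (ratio 1.52, interval 1.44 to 1.60). The genes rps1902 (eS19) and the bin of rpl803 and rps1701, 70 kb apart, met at 1.41 (1.31 to 1.51, 789 reads). The highest ratio, 2.06 (1.46 to 2.83), joined rps1801 and rpl1901 (L19) across 500 kb with 38 reads, and its first bin is the one with no HindIII site. The pair of rpl4301 with the bin of rps29 and rps27 had 1.54 (45 reads), rpl2701 and rps401 had 1.52 (62 reads), and rpl402 and rpl1901 had 1.46 (34 reads). All 6 pairs are on II. At the other extreme, rpl1101 and rps502 on I, 150 kb apart, had 0.565 (0.444 to 0.710, 74 reads), and rpl8 and rpl401, 100 kb apart on II, had 0.594 (0.535 to 0.656, 382 reads).

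As a set, the contact of paralogues was not distinguishable from that of other bins in like positions. The 49 pairs of genes of one family in different bins had a median ratio of 1.08 (interval 0.94 to 1.16, SD 0.29). They make 48 pairs of bins, since rpl702 with rpl701 and rps1401 with rps1402 join the same 2 bins. Of the 49, 29 lay above 1, or 59.2%, against 46.9% of all inter-chromosomal and 47.6% of all same-arm pairs of arm bins, whose medians were 0.977 and 0.990. The interval of the family median includes both of these. On different chromosomes the median was 1.08 (34 pairs), on the same arm 1.10 (7 pairs) and on opposite arms 1.01 (8 pairs). The interval lay above 1 in 2 pairs and below it in 0. These were rpl801 and rpl803 (uL2) at 1.83 (1.17 to 2.72, 24 reads) and rpl1202 and rpl1201 (uL11, at the base of the ribosomal stalk), 70 kb apart on III, at 1.11 (1.03 to 1.21, 598 reads). The third gene for uL2, rpl802, met rpl803 at 0.499 (0.183 to 1.09, 6 reads). Next in order came rpl102 and rpl101 (uL1) at 1.77 with 8 reads, rps802 and rps801 at 1.42 with 11, rpl3703 and rpl3702 at 1.42 with 13, rps3001 and rps3002 at 1.39 with 12, and rpl501 and rpl502 at 1.37 with 12. Each of those 5 intervals included 1. The intervals cover counting error and not the spread between pairs. The share of all pairs of arm bins whose interval excludes 1 was not computed. Over all same-arm pairs 60 to 100 kb apart the upper quartile of the ratio was 1.09, close to the value of rpl1202 and rpl1201.

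Near-identical copies can take each other's reads, so the pairs were also set apart by shared sequence. The 18 pairs whose bins had no 30-base sequence in common had a median of 1.01 (interval 0.77 to 1.16). The 31 pairs with some had 1.10 (0.93 to 1.24). Of these 31, the 8 pairs with over 100 had 1.15 (0.50 to 1.37). The intervals overlap, and the means were 1.02, 1.08 and 1.06, so no rise with shared sequence is shown. The bins of rpl801 and rpl803 share 0 such sequences and those of rpl1202 and rpl1201 share 453. The copies of a family were not more alike in end contact than other genes of the set were. Their log2 folds differed by a median of 0.32 over the 49 pairs, beside 0.31 over all 5565 pairs of bins of the set, and the copies lay on the same side of the running median in 22 of 49 pairs, beside 3012 of all 5565. The 3 genes for uL2 had folds of 0.873 (rpl801), 1.37 (rpl802) and 0.743 (rpl803).

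**Figure D4:**
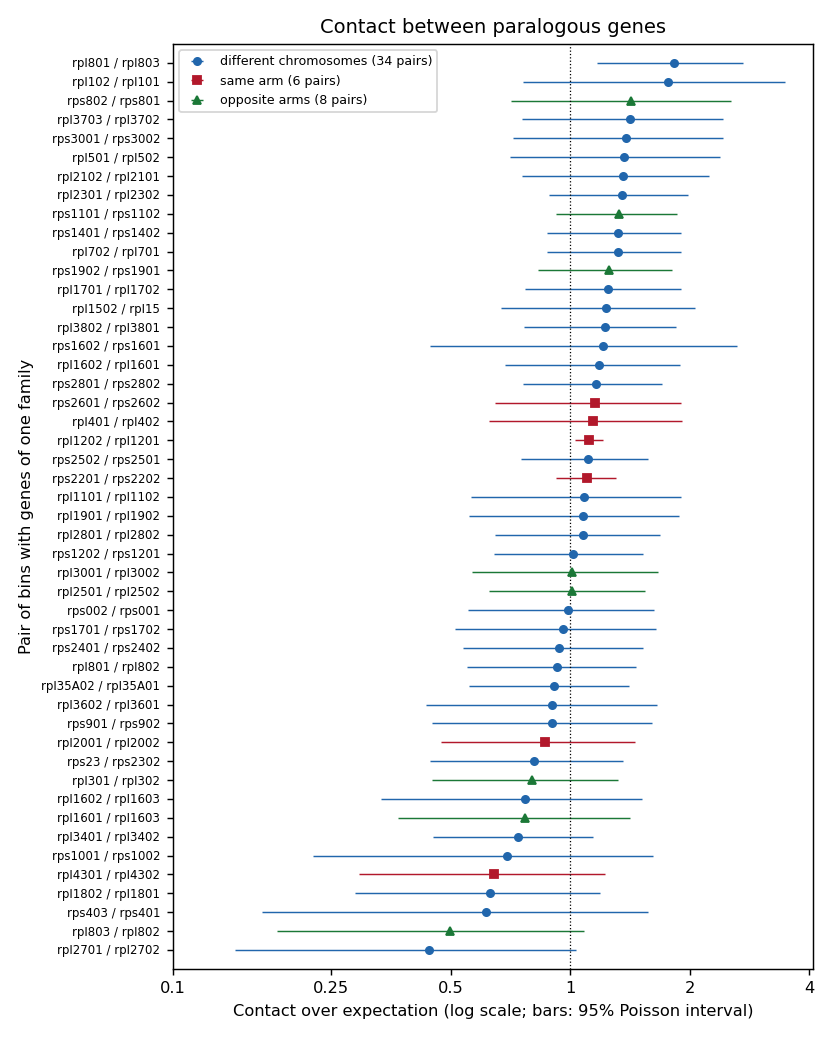
Ratio of contact to expectation for 48 of the 49 pairs of genes of one family in different bins, on a log axis, with 95% Poisson intervals of the reads as bars and marks by position. The ratios run from 0.442 (rpl2701 and rpl2702) to 1.83 (rpl801 and rpl803), and 46 of the intervals drawn include 1.

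Contact across the bins with ribosomal protein genes was slightly reduced. The insulation score compares contact between the 50 kb on either side of a bin with that given by separation, on a log2 scale with the chromosome median at 0, and low values mean less contact across. The 106 bins had a median of -0.05 (interval -0.09 to -0.03), beside -0.01 for all arm bins, and 69 of them lay under 0 (52% of all). At 30 kb to the left the median was -0.02 and at 60 kb to the right -0.01. Of the 106 bins, 26 were local minima at least 0.1 deep, here called boundaries, which is 24.5% (16.7 to 33.8, exact binomial), against 17.2% of all arm bins. The interval of the share includes the share of all arm bins. At offsets of up to 100 kb from these bins the share ran from 13.2% to 28.3%. It was highest 60 kb to the left and not at the bins themselves.

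Boundaries were more frequent in bins with convergent genes, and the bins of the set hold such genes more often. A convergent gene pair was present in 96 of the 106 bins, or 90.6%, and in 80.8% of all arm bins. Here too no bins picked by other genes were compared. Boundaries made up 20.3% of arm bins with such a pair (175 of 863) and 4.39% of those without (9 of 205). Among bins of the set with a convergent pair, 25 of 96 were boundaries, or 26.0% (17.6 to 36.0). Bins with an exact HomolD box were boundaries in 21 of 68 cases and the other bins of the set in 5 of 38, a split chosen after the values were seen and not tested.

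The deepest boundary at a ribosomal protein gene was at rpl2302 (L23) on III, 0.56 deep and the 10th deepest of 202 on all bins. The next were rpl302 (L3) on I with 0.52 and the bin of rpl803 and rps1701 on II with 0.51. The bin of rps1201 (eS12) had 0.49, that of rpl1201 0.47 and that of rps29 (uS14) and rps27 (eS27) 0.46. At rpl2302 and at rpl803 with rps1701 the score rose on both sides, by at least 0.53 and 0.51. At rps1201, rpl1201 and the bin of rps29 and rps27 the lower flank rose by 0.28, 0.26 and 0.26. The bin of rpl803 and rps1701 also holds a tRNA gene.

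**Figure D5:**
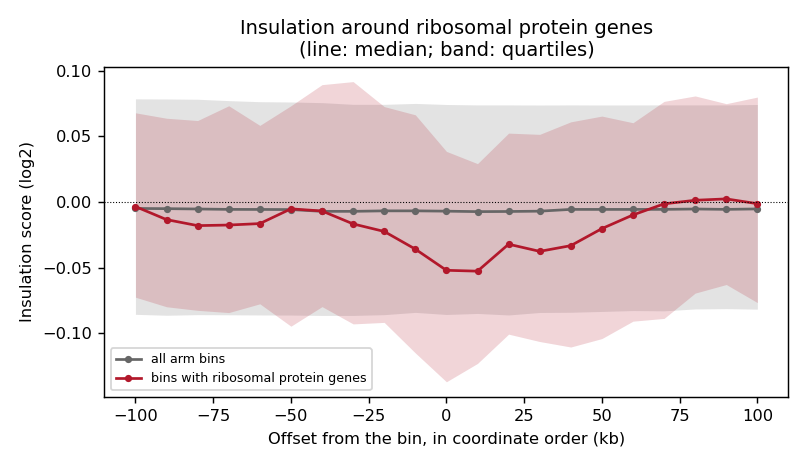
Median insulation score (log2, line) and quartiles (band) at offsets of up to 100 kb in coordinate order from bins with ribosomal protein genes (red) and from all arm bins (grey). The red line dips to -0.05 at the bin itself and at the next bin to the right and returns towards the grey line by 60 kb, and the bands overlap throughout.

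Other genes of the translation machinery did not all share the pattern. Of the 7 genes for proteins of the ribosomal stalk, which recruits elongation factors to the ribosome, 5 lay in arm bins. Of those 5, 4 were under the running median in end contact (51.7% of all arm bins). Their folds ran from 0.548 for rpp101 (33 reads) to 3.86 for rpp202 (495 reads), whose bin is 20 kb from that of rpl401. The 6 elongation factor genes had a median log2 fold of -0.23, with 4 of 6 bins under. Of these, tef102 shares a bin with rpl3401 and rpl1602, and tef103 shares one with rpl1601. The 5 genes of RNA polymerase I and its factors, which transcribe ribosomal RNA, had a median of -0.55. All 5 lay under the running median (51.7% of all arm bins). Their folds were 0.478 for rrn3 (63 reads), 0.679 for rpa2 (52 reads), 0.683 for rrn7 (25 reads), 0.765 for rpa49 (33 reads) and 0.781 for nuc1 (51 reads). The bin of rrn3 adjoins the low bin of rps7. That of rrn7 lies 60 kb from the bin of rpl2502, so higher bins beside rpl2502 enter its running median. These values are thus not independent of bins described above.

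Genes of ribosome assembly and the mitochondrial ribosome lay closer to the general course. The 8 arm bins with nucleolar assembly genes had a median of 0.02, 4 of them under, with fib1 (fibrillarin, an RNA methyltransferase) highest at 1.57 (157 reads). The 5 regulator genes had 0.04, from 0.683 for rrn7 to 1.31 for sck2. The 39 mitochondrial ribosomal protein genes, whose products work in another compartment, had 0.06 over 33 arm bins (interval -0.10 to 0.18). Of these bins, 15 lay under (51.7% of all arm bins). For centromeres that list had -0.13 (interval -0.16 to 0.00), with 23 of 33 under (52.9% of all arm bins). Whether any of these lists differs from the cytoplasmic ribosomal protein genes was not tested.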

How the data were processed

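Hi-C was done on 2 samples of 1 strain. The submitters' processing notes name Bowtie2 2.1.0 and the build ASM294v2. The authors deposited 1 matrix of 1258 bins of 10 kb, 40 of them blank, whose values are a contact signal made equal in sum for every bin by iterative correction, per the file headers. Whole reads were recovered as value times 1 factor per bin (99.9999% of values within 0.05 of a whole number, 99.882% of the header's 37571192 reads), and no count test was run. The depth is given as these reads, and a pair of bins on different chromosomes is covered by few of them.

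Genes and promoter sequences came from RefSeq ASM294v3, whose 3 chromosome lengths (5579133, 4539804 and 2452883) equal those of the file. No promoter table was used, so promoters were read from the genome. Families follow symbols, with rpl8 (eL8) kept apart from rpl801 to rpl803 (uL2). The symbol rule found 131 genes.

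End windows were the outermost 5 bins with values, and centromere windows held bins within 50 kb of a midpoint. Same-arm pairs were set against all pairs of their separation and arm, and families on opposite arms against their distance classes. Insulation left missing cells out of sums, with at least 60% present. The genes named by value were the 6 lowest and highest bins for the ends of I and II, the 3 lowest and highest for the ends of III and centromeres, the 6 highest pairs of each kind and the 6 deepest boundaries, with bins near ends or centromeres. The lowest pairs, the list genes' extremes and the pair rpl1202 and rpl1201 were picked by their values. The values of 1 gene named by this rule are not reported here. The members and lists were chosen with earlier results of these data known. With 1 map, no test was possible. The steps were tested on simulated data. Scripts ran in Python 3.11.15 with pandas 2.3.3, NumPy 2.4.6, matplotlib 3.10.9 and SciPy 1.17.1.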

Additional observations from a re-analysis of the deposited data

How the results depend on the processing

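Of 56 alternatives, 55 were planned and 1, leaving the mating-type region out of the contact with centromeres, was added after seeing the data, as were the splits by promoter box and gene number. Replicates could not be left out, because the deposited map is 1 sample. No paired analysis was possible because there is 1 group and 1 map. End contact (ends of I and II) stayed below the running median under all 10 alternatives (-0.17 to -0.03). With end windows of 20 kb the median was -0.03 (interval -0.18 to 0.08), near the -0.03 of all arm bins, and 54.7% of the bins lay under against 52.5% of all, so the difference from other bins was not seen there. In reads without the correction the interval, -0.18 to 0.01, also included 0. For the ends of III the median was 0.0435 in reads without the correction and 0.0266 with end windows of 100 kb. It was 0.0503 when the 5% of bins lowest in reads were dropped. The interval there, 0.0175 to 0.100, lay above 0, and 36.1% of the bins lay under against 48.7% of all. The median of inter-chromosomal pairs turned from below to above 1 in reads without the correction (1.02). That of same-arm pairs was 0.989 there. Boundaries made up 34.9% of the bins without the correction (29.1% of all arm bins) and 58.5% when counted within 1 bin (50.2%). The HomolD share was 92.4% with its last letter free. The causes were not tested. The medians for centromeres, families and insulation stayed within their intervals under all of their alternatives. Pairs on different chromosomes hold few reads, with a median of 12, so single ratios are imprecise at this depth.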
